A study of Rattus norvegicus with 9 samples.

Results

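The 67 genes described here encode the classic axon guidance ligands and their receptors: the semaphorins, plexins, neuropilins, ephrins, Eph receptors, netrins, DCC and UNC5 receptors, Slits and Robos. They were chosen by name from the protein-coding genes, with at least 90 counts summed over the 9 rats, out of 23422 protein-coding genes and 37209 genes in all. Of 72 genes with a matching name, 5 were under that sum. Efna2 (227 counts) and Robo1 (266 counts) lay just inside it, and Ntn5 (66 counts) and Efna4 (45 counts) just outside. The 67 genes held 35 ligands and 32 receptors, and all 67 passed the filter on low counts that left 16837 genes for testing.

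RNA from the frontal cortex, called prefrontal cortex (PFC) in the study's methods, was sequenced from 9 male Wistar rats aged 14 weeks, 3 in each of 3 groups. Control rats were left undisturbed with their dams until weaning. Maternal separation (MS) rats were parted from their dams for 4 h a day from postnatal day 1 to 21. The MS+EA rats were separated in the same way and later had needles with electrical stimulation (electroacupuncture, EA) at the Baihui and Yintang points of the head, every other day from postnatal day 61 to 81. By the study's methods, EA was given under isoflurane anesthesia, and Control and MS rats were anesthetized over that period too. Every rat had been through behavioral tests before the tissue was taken. No sham-needled rats were sequenced, so MS+EA differs from MS by the whole procedure. The litter of each rat is not given, and rats of 1 group that came from the same dam would be less independent than 3 separate animals. In bulk tissue, fewer cells of a type and less RNA per cell cannot be told apart.

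Guidance molecules are read by the growth cone, the moving tip of a growing axon, which turns toward or away from their source. Semaphorins signal through plexins, the secreted class 3 members mostly with a neuropilin as co-receptor. Ephrins are held on the cell surface and bind Eph receptor tyrosine kinases on the neighboring cell, so that signals can pass into both cells. Netrins act through DCC and the UNC5 receptors, and Slits through Robos. Many of these genes stay active in the adult cortex, where they are known for roles in dendritic spines, synapses and perineuronal nets.

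Library totals were 16153292 to 19007907 counts in Control, 16106381 to 17243320 in MS and 12479905 to 14913736 in MS+EA. Each MS+EA library was smaller than those of the other 6 rats. The 67 genes held 0.508% to 0.538% of the counts of each rat. The markers of cortical excitatory neurons, glia and vessels fixed for this work all passed the filter on low counts except Trh, a layer 6 marker. The share of counts in long noncoding RNA was 0.798% to 0.908% in Control, 0.852% to 0.964% in MS and 0.976% to 1.14% in MS+EA, where each rat lay above the other 6. The summed level of 5 excitatory neuron markers was 3882 to 4513 CPM (counts scaled to a common library size, after correction for library composition) in Control, 3954 to 4008 in MS and 3373 to 3508 in MS+EA. It was lowest in the 3 MS+EA rats, and Camk2a and Slc17a7 made up most of it. Over the 5 markers the median log2 fold change was only -0.01 between MS+EA and Control and -0.02 between MS+EA and MS. In each of these comparisons 2 of the 5 were lower at an unadjusted p under 0.05 by edgeR, and 0 were higher. The 8 tested markers of layers 6 and 6b summed to 127 to 176 CPM in Control, 131 to 141 in MS and 160 to 182 in MS+EA. Their median log2 fold change was -0.59 between MS and Control and 0.61 between MS+EA and MS. The shifts in library total, long noncoding share and excitatory sum run along the same group as the differences from Control below. The part of these shifts and of the layer 6 and 6b markers in the results below was not tested.

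No guidance gene passed the study's thresholds, an adjusted p under 0.05 with a change of more than 1.5-fold, in any of the 3 comparisons. Between MS and Control 0 of 67 passed, against 0.0238% of all genes tested. For MS+EA against MS 0 of 67 passed, against 0.0178% of all genes, and for MS+EA against Control 0 of 67, against 1.37% of all genes. With the adjusted p alone, at any fold change, the counts by edgeR's quasi-likelihood test were 0, 0 and 3 genes, and the 3 in the last comparison were 4.48% of the guidance genes against 5.4% of all genes. Those 3 were Epha3, which rose (1 gene; 3.21% of all genes rose), and Efnb3 and Sema6b, which fell (2 genes; 2.19% of all genes fell). DESeq2 gave 0, 0 and 8 genes and limma-trend 0, 0 and 3. In the last comparison 8.77% of all genes passed by DESeq2 and 5.55% by limma-trend. The count of 3 for MS+EA against Control became 0 when rat A1, A6 or C16 was left out. Without C3 the count was 5 (Epha3, Epha7, Ntng2, Sema3c and Unc5a), with only Epha3 kept. Without C10 it was 2 (Plxna1 and Sema3d), with none of the 3 kept. The count over all genes went from 910 to 112 without A1, 297 without A6, 334 without C10 and 398 without C16.

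An unadjusted p under 0.05 was found for 5 guidance genes (7.46%) between MS and Control, where 10.6% of all genes had one. Of these, Sema3a and Sema3d were higher in MS (7.06% of all genes were) and Efnb3, Slit1 and Unc5a lower (3.55%). The count was again 5 (7.46%) between MS+EA and MS, against 12.4% of all genes, with Epha3 higher in MS+EA (6.01% of all genes were) and Sema7a, Plxna1, Sema4f and Sema6b lower (6.42%). It was 16 (23.9%) between MS+EA and Control, against 22.5% of all genes. Of these, 6 were higher (8.96%, against 11.9% of all genes) and 10 lower (14.9%, against 10.6% of all genes). The median log2 fold change of the 67 genes was -0.01, -0.02 and -0.04 in these comparisons, beside 0.00, 0.00 and 0.01 over all genes. By the totals the guidance genes stood close to or under the background of the whole table. By direction, the share of higher genes was under its background in all 3 comparisons. The share lower than Control was above its background in MS+EA, and slightly so in MS (4.48%, against 3.55%). The 95% interval of the log2 fold change lay wholly within a 1.5-fold change in either direction for 49 genes between MS and Control, for 51 between MS+EA and MS and for 45 between MS+EA and Control. For the rest, the interval reached past such a change on at least 1 side.

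**Figure D1:**
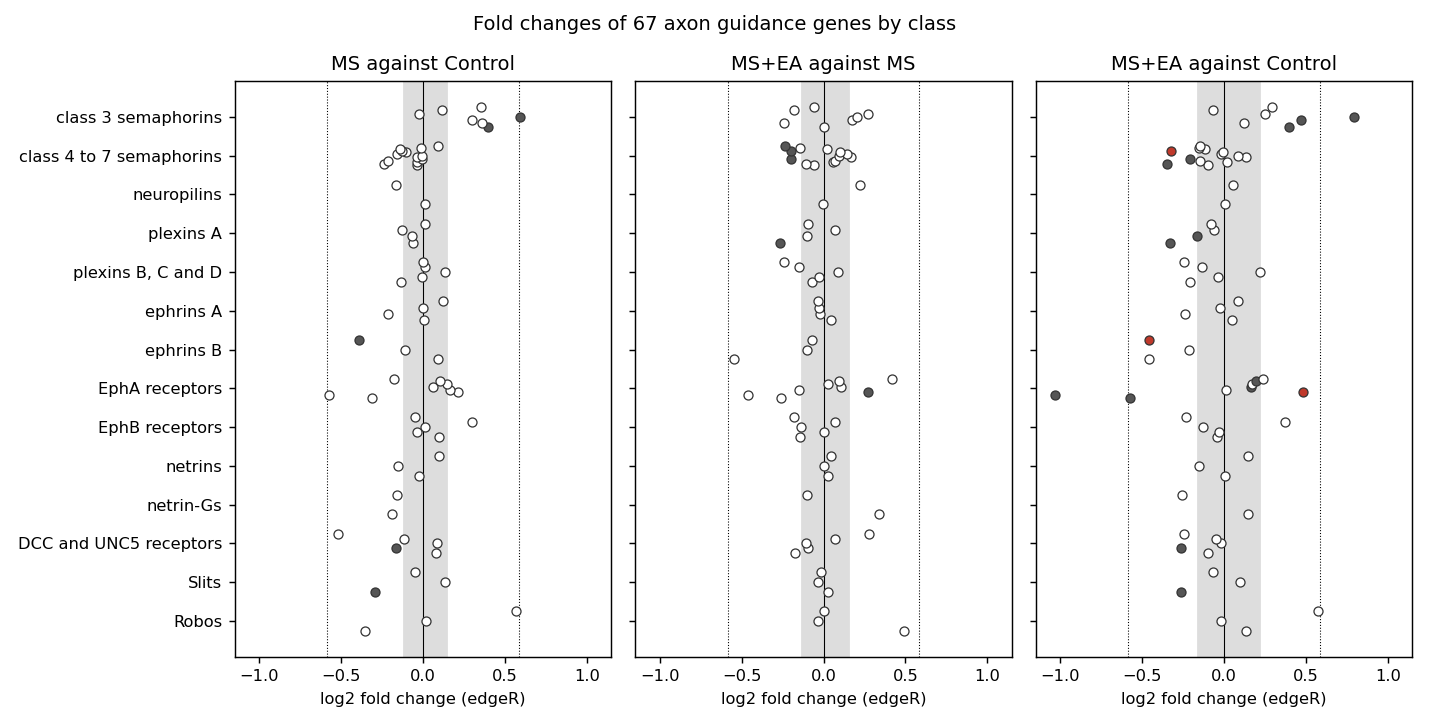
Log2 fold change (edgeR, x axis) of each of the 67 genes, grouped by class (y axis), in the 3 comparisons. White points had an unadjusted p of 0.05 or more, grey points an unadjusted p under 0.05 and red points an adjusted p under 0.05. The grey band spans the middle 50% of all 16837 genes and the dotted lines mark a 1.5-fold change. Red points are seen only in the right panel, for Epha3, Efnb3 and Sema6b, and 6 of 7 class 3 semaphorins lie right of 0 in the left panel.

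The class 3 semaphorins, secreted ligands that mostly repel growth cones, were the group that stood furthest above 0. Their median log2 fold change was 0.35 between MS and Control, with 6 of 7 above 0, and 0.29 between MS+EA and Control, again with 6 of 7 above 0. It stood at 0.00 between MS+EA and MS. The division of the semaphorins into class 3 and classes 4 to 7 was made after the values were seen, and over all 20 semaphorins the medians were -0.02, 0.01 and -0.01. Leaving out rats moved the class 3 median between 0.23 (without B4) and 0.44 (without A1) for MS against Control. MS and MS+EA were set against the same 3 Control rats, so the 2 medians are not independent.

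Sema3a, the best-known repellent of the class and a component of perineuronal nets, was measured at 69.2, 56.9 and 57.3 CPM in the Control rats A1, A2 and A6. In MS it was 65.0 CPM in B3, 89.4 CPM in B4 and 87.3 CPM in B6, and in MS+EA 78.2 CPM in C3, 79.4 CPM in C10 and 84.2 CPM in C16. Both B4 and B6 and all MS+EA rats were above every Control rat, whereas B3 lay under A1. The log2 fold change was 0.40 (SE 0.116) between MS and Control, with an adjusted p of 0.215 by edgeR. In MS+EA against Control it was also 0.40 (SE 0.116), with an adjusted p of 0.0653 by edgeR, and between MS+EA and MS it was 0.00. The adjusted p for MS+EA against Control was under 0.05 in 5 of 17 alternatives, among them total counts and the 6 rats alone. For MS against Control it was under 0.05 in 1 of 17.

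Sema3d, another secreted class 3 ligand, was at 11.4, 11.5 and 12.2 CPM in the Control rats, at 14.7, 22.5 and 15.7 CPM in the MS rats and at 17.3, 15.1 and 28.7 CPM in the MS+EA rats. Each of the 6 separated rats was above all 3 Control rats, and B4 and C16 stood well apart within their groups. The log2 fold change was 0.59 (SE 0.223, edgeR adjusted p = 0.36) between MS and Control. It was 0.79 (SE 0.224, edgeR adjusted p = 0.058) between MS+EA and Control, the highest value among the 67 genes. The latter became 0.47 without C16 (edgeR adjusted p = 0.184), under the 1.5-fold limit, and 0.80 and 0.97, past both thresholds, without B4 or C10. Sema3d also passed both with 0.79 in DESeq2 and with the filter of at least 1 count in any rat. The value for MS against Control became 0.38 without B4 (edgeR adjusted p = 0.793).

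The level of Sema3d moved with markers of pericytes and fibroblasts, cells of the vessel wall and meninges. The sum of the 7 markers of that list, all detected, was 61.4 to 67.6 CPM in Control, and in the separated rats it was highest in B4 (165 CPM) and C16 (117 CPM), the same pair in which Sema3d was highest. Col1a1, a fibroblast collagen, reached 72.8 CPM in B4 and 45.5 CPM in C16 and was 6.34 to 7.68 CPM in Control. C10, with a marker sum of 59.3 CPM, lay under all Control rats in this list and still had more Sema3d than each of them. The part of these cells in the Sema3d values was not tested. Endothelial markers, 6 of 6 detected, summed to 131 to 155 CPM in Control, 163 to 194 CPM in MS and 140 to 175 CPM in MS+EA, with all MS rats above all Control rats.

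Sema3c was at 51.4, 61.4 and 59.4 CPM in Control, 63.1, 67.5 and 80.7 CPM in MS and 60.7, 86.1 and 91.9 CPM in MS+EA. The 3 MS rats were above the Control rats, and in MS+EA this held for C10 and C16 but not for C3. Its log2 fold change was 0.30 (SE 0.141, edgeR adjusted p = 0.483) in MS against Control and 0.47 (SE 0.141, edgeR adjusted p = 0.0702) in MS+EA against Control. The latter was 0.35 without C16 (edgeR adjusted p = 0.216), 0.39 without A1 (edgeR adjusted p = 0.245), and 0.64 and past both thresholds without C3. The former was 0.19 without B6 (edgeR adjusted p = 0.802). Of the other class 3 genes, Sema3b and Sema3g had log2 fold changes of 0.36 and 0.35 between MS and Control (SE 0.203 and 0.164), Sema3f 0.12, and Sema3e, which can act on Plxnd1 without a neuropilin, -0.02.

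The class 4 to 7 semaphorins, which are bound to the membrane apart from a few shed or secreted forms, lay slightly on the other side of 0. Between MS and Control 12 of 13 were below 0, with a median of -0.04. In MS+EA against MS 6 of 13 were below 0, with a median of 0.02. In MS+EA against Control 10 of 13 were below 0, with a median of -0.12. The shifts are small beside a median half-width of 0.28 for the 95% interval of a single gene. That width does not measure the spread of a class median.

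Sema6b, a transmembrane ligand of plexins A, was at 111, 100 and 123 CPM in Control, 105, 107 and 95.5 CPM in MS and 89.0, 88.7 and 90.2 CPM in MS+EA. The MS+EA rats lay within a narrow range below all others, and the Control and MS rats overlapped. Sema6b fell by 0.32 on the log2 scale between MS+EA and Control (SE 0.0804, edgeR adjusted p = 0.0393), which is under the 1.5-fold limit. Against MS its log2 fold change was -0.20 (SE 0.0806, edgeR adjusted p = 0.348). The adjusted p against Control stayed under 0.05 in 9 of 17 alternatives. Over all 17 the log2 fold change ran from -0.39 without A2, which passed, to -0.24 without A6, which did not. It was lost with total counts as the scaling, in a fit of the 6 rats compared alone, and without A1, A6, B4, C3, C10 or C16, the highest adjusted p being 0.152.

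Sema7a, which is anchored by a lipid and binds Plxnc1 and integrins, was at 227, 190 and 214 CPM in Control, 238, 221 and 215 CPM in MS and 189, 177 and 205 CPM in MS+EA. All MS+EA rats were below all MS rats, and the Control rats spanned both. Its log2 fold change between MS+EA and MS was -0.24 (SE 0.0804, edgeR adjusted p = 0.287). Sema4f had 57.0, 60.0 and 59.8 CPM in Control, 61.4, 57.8 and 56.9 CPM in MS and 52.4, 54.0 and 46.7 CPM in MS+EA. Its MS+EA rats lay below the other 6, with log2 fold changes of -0.20 (SE 0.0774, edgeR adjusted p = 0.327) against MS and -0.21 (edgeR adjusted p = 0.137) against Control. Sema5a, with the most counts of the semaphorins, was 215 to 282 CPM in Control, 201 to 267 CPM in MS and 218 to 282 CPM in MS+EA. Its groups overlapped fully.

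**Figure D2:**
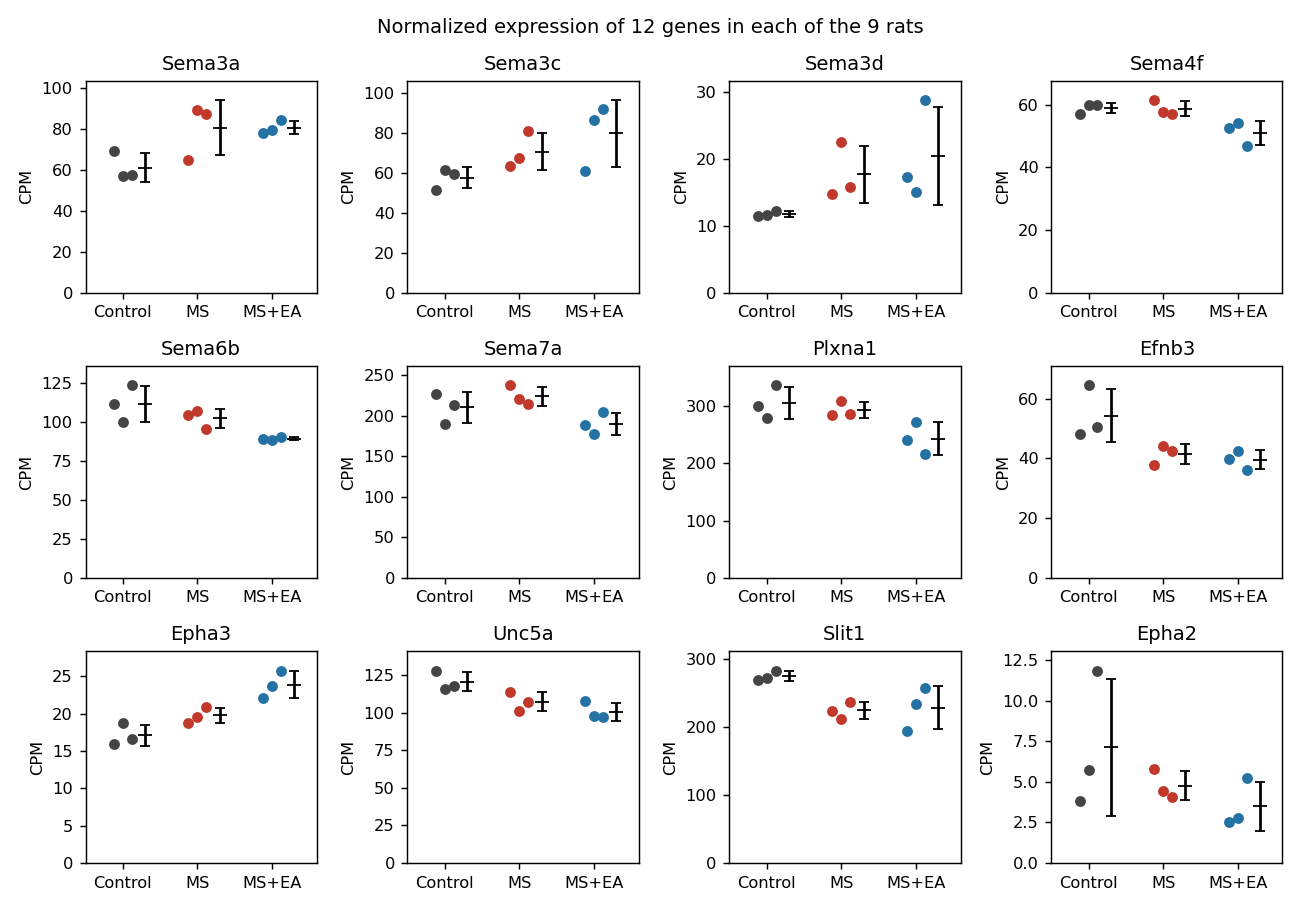
CPM (y axis, from 0) of 12 guidance genes in each rat, as 1 point per rat, by group (x axis), with the mean and SD of the 3 rats beside the points. Epha3 is 15.9 to 18.7 CPM in Control and 22.1 to 25.8 CPM in MS+EA without overlap, Sema6b is lowest in MS+EA, and single rats carry the height of Sema3d (28.7 CPM in C16) and Epha2 (11.9 CPM in A6).

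Among the receptors of the semaphorins, the plexins lay below 0 for 8 of 9 genes between MS+EA and Control, with a median log2 fold change of -0.13. The count was 6 of 9 between MS and Control (median -0.01) and 7 of 9 between MS+EA and MS (median -0.09). Plxna1, a signaling receptor for class 3 and class 6 semaphorins, was at 300, 280 and 336 CPM in Control, 284, 309 and 286 CPM in MS and 241, 273 and 216 CPM in MS+EA. All MS+EA rats were below the other 6. The log2 fold change was -0.27 (SE 0.0908, edgeR adjusted p = 0.29) against MS and -0.33 (SE 0.0908, edgeR adjusted p = 0.0549) against Control. Plxna2, a close relative, ran from 409 to 446 CPM in Control, 402 to 415 CPM in MS and 364 to 410 CPM in MS+EA, with a log2 fold change of -0.17 (edgeR adjusted p = 0.149) between MS+EA and Control. The neuropilins overlapped between the groups: Nrp2, the co-receptor of Sema3f, was 37.2 to 48.1 CPM in Control, 30.8 to 46.7 CPM in MS and 36.2 to 54.7 CPM in MS+EA.

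Plxnb3, a receptor of Sema5a that oligodendrocytes also express, was chosen after its values were seen. It was at 39.9 CPM in B3 and 41.9 CPM in C3 and at 25.5 to 30.5 CPM in the other 7 rats, so that 1 rat of each separated group stood high. The summed level of 7 oligodendrocyte markers, all detected, was highest in C3, at 4269 CPM, and was 2960 CPM in B3 and 3307 CPM in A1, where Plxnb3 was 27.0 CPM. The part of these cells in the Plxnb3 values was not tested.

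**Figure D3:**
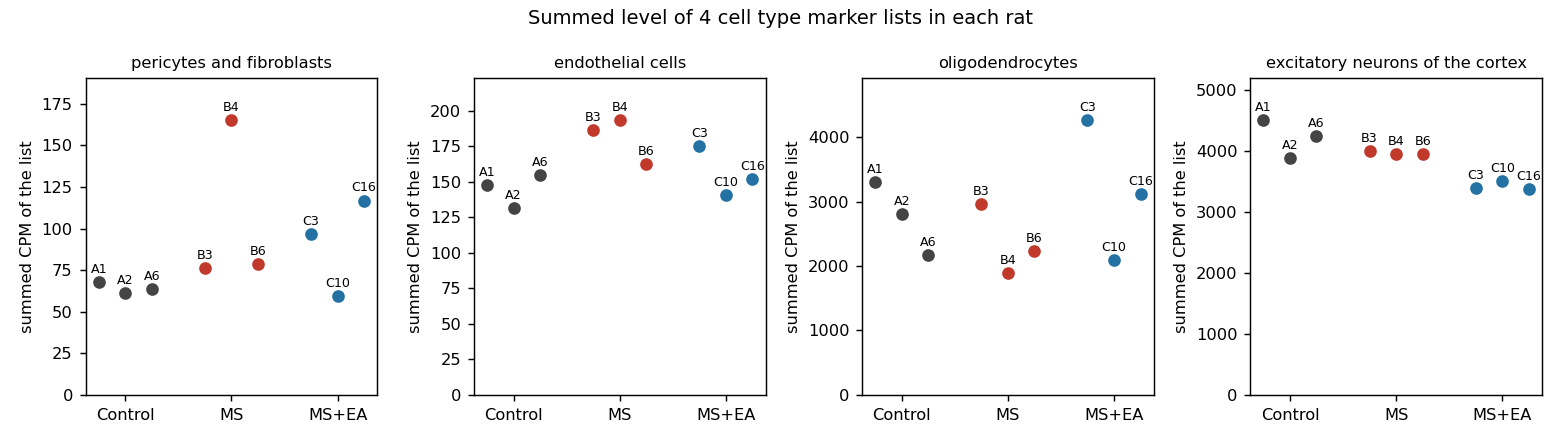
Summed CPM (y axis, from 0) of the markers of 4 cell types in each rat, by group (x axis). Pericyte and fibroblast markers are highest in B4 (165 CPM) and C16 (117 CPM), oligodendrocyte markers in C3 (4269 CPM), and the excitatory neuron sum is lowest in the 3 MS+EA rats.

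The smallest p of the 67 genes in MS+EA against Control belonged to an Eph receptor. Epha3, a receptor tyrosine kinase for A-type ephrins, was at 15.9, 18.7 and 16.5 CPM in Control, 18.8, 19.6 and 20.9 CPM in MS and 22.1, 23.7 and 25.8 CPM in MS+EA. The groups followed in this order with no overlap, although A2 and B3 differed by little, and Epha3 alone of the 67 genes was free of overlap in all 3 comparisons. The means were 17.1 ± 1.46, 19.7 ± 1.05 and 23.9 ± 1.82 CPM (SD, n = 3 rats each). Epha3 rose by a log2 fold change of 0.48 between MS+EA and Control (SE 0.107, edgeR adjusted p = 0.0265), under the 1.5-fold limit. The intermediate steps were 0.21 (SE 0.107, edgeR adjusted p = 0.513) from Control to MS and 0.27 (SE 0.107, edgeR adjusted p = 0.329) from MS to MS+EA. The adjusted p against Control stayed under 0.05 in 13 of 17 alternatives and was lost without A1, A6, C10 or C16, where the fold change kept its sign and the adjusted p reached at most 0.117.

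The 8 EphA receptors had median log2 fold changes of 0.08, 0.06 and 0.17 in MS against Control, MS+EA against MS and MS+EA against Control, but did not move as a block. Epha5 and Epha7, both receptors of A-type ephrins and chosen here after their values were seen, were above all Control rats in every MS+EA rat. Epha5 was 199 to 216 CPM in Control and 219 to 243 CPM in MS+EA, a log2 fold change of 0.16 (edgeR adjusted p = 0.163). Epha7 was 131 to 137 CPM in Control, 140 to 148 CPM in MS and 143 to 165 CPM in MS+EA, a log2 fold change of 0.20 between the outer groups (edgeR adjusted p = 0.106). Epha2 and Epha10, an Eph receptor without kinase activity, lay below 0, with log2 fold changes of -1.03 (SE 0.39, edgeR adjusted p = 0.138) and -0.58 (SE 0.232, edgeR adjusted p = 0.163) between MS+EA and Control. Epha2 rested on A6, at 11.9 CPM, when the other 8 rats had 2.50 to 5.77 CPM. Epha4, which binds ephrins of both classes, was 405 to 446 CPM in Control, 456 to 519 CPM in MS and 369 to 529 CPM in MS+EA, so every MS rat was above every Control rat while the MS+EA rats spanned both. Its log2 fold change between MS and Control was 0.16 (SE 0.111, edgeR adjusted p = 0.635), and 0.11 without B6.

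The EphB receptors gave no p under 0.05 in any comparison. Ephb2, a receptor known from excitatory synapses, was among the steadiest of all 67 genes, at 22.8 to 26.4 CPM over the 9 rats. Ephb6, which lacks kinase activity, was 274 to 309 CPM in 8 rats and 187 CPM in C3.

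Among the ligands of the Eph receptors, Efnb3, a transmembrane B-type ephrin that can also signal back into its own cell, was at 48.1, 64.5 and 50.4 CPM in Control. The MS rats had 37.8, 44.0 and 42.6 CPM and the MS+EA rats 40.0, 42.4 and 36.2 CPM. All 6 separated rats were below all Control rats, with MS and MS+EA on the same level. Efnb3 fell by 0.46 on the log2 scale between MS+EA and Control (SE 0.115, edgeR adjusted p = 0.0402). Between MS and Control the log2 fold change was -0.39 (SE 0.114, edgeR adjusted p = 0.218), which became -0.25 without A2 (edgeR adjusted p = 0.475), and between MS+EA and MS it was -0.07. The adjusted p for MS+EA against Control stayed under 0.05 in 8 of 17 alternatives. Over all 17 the log2 fold change ran from -0.54 without A1 to -0.32 without A2, and neither of these passed. It was lost with total counts, with the 6 rats alone, and without A1, A2, A6, B6, C3, C10 or C16, reaching at most 0.124. Efnb2, another B-type ephrin, was 31.1 to 36.6 CPM in Control and 26.6 to 33.2 CPM in MS+EA, a log2 fold change of -0.21 (edgeR adjusted p = 0.262). The A-type ephrins, which are lipid-anchored, had no p under 0.05, and the one with the most counts, Efna5, was 62.7 to 70.0 CPM in Control, 63.9 to 78.0 CPM in MS and 64.2 to 78.0 CPM in MS+EA.

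In the netrin system the secreted ligands were weak, and the receptors gave 1 gene with an unadjusted p under 0.05. Unc5a, a receptor that turns the netrin response to repulsion, was at 128, 116 and 118 CPM in Control, 114, 101 and 107 CPM in MS and 107, 97.5 and 97.0 CPM in MS+EA. All 6 separated rats were below all Control rats. The log2 fold change was -0.17 (SE 0.0725, edgeR adjusted p = 0.443) in MS against Control and -0.26 (SE 0.0729, edgeR adjusted p = 0.0561) in MS+EA against Control. Dcc, the receptor of attraction, was 79.1 to 88.8 CPM in Control, 85.4 to 97.2 CPM in MS and 62.6 to 89.6 CPM in MS+EA, with the lowest value in C3. Ntn1, the founding netrin, was at 1.34 to 3.69 CPM over the 9 rats, with a 95% interval of -0.83 to 0.79 on the log2 scale for MS against Control, which takes in a 1.5-fold change in either direction. Ntng2, a netrin-G that binds Lrrc4 rather than DCC or UNC5 receptors, was 29.7 to 35.7 CPM in Control, 29.0 to 31.4 CPM in MS and 20.8 to 37.1 CPM in MS+EA.

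Slit1, a repellent that binds Robos, was at 269, 272 and 283 CPM in Control, 224, 212 and 237 CPM in MS and 194, 233 and 257 CPM in MS+EA. All 6 separated rats were below all Control rats, and the MS+EA rats spread around the MS rats. The log2 fold change was -0.29 (SE 0.0904, edgeR adjusted p = 0.253) in MS against Control and -0.27 (SE 0.0906, edgeR adjusted p = 0.103) in MS+EA against Control. The latter was -0.16 without C3 and -0.36 without C16. Robo2, a Slit receptor, was steady at 376 to 385 CPM in Control, 370 to 412 CPM in MS and 334 to 424 CPM in MS+EA. Robo3, a divergent Robo named here after its values were seen, was 9.82 to 16.8 CPM in Control and reached 30.4 CPM in B3 and 26.2 CPM in C3, the same pair of rats that stood high for Plxnb3.

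Groups free of overlap were about as common among the guidance genes as in the whole table, or less. Between MS and Control 13 genes (19.4%) had all rats of a group on the same side of all rats of the other, against 17.6% of all genes. In 8 of them MS was higher (10% of all genes) and in 5 lower (7.53%). The same held for 7 genes (10.4%, against 17.9%) between MS+EA and MS, 2 of them higher (8.27% of all genes) and 5 lower (9.6%). For MS+EA against Control there were 11 (16.4%, against 25.9%), 5 higher (13% of all genes) and 6 lower (12.9%). The spread within groups was like that of other genes, with a median coefficient of variation of 12.1% against 12.4%. The steadiest gene was Sema4c (3.80%), and the most variable was Epha2 (51.4%). The highest rat was under 1.5 times the lowest for 32 of the 67 genes and over 2 times for 11. Of the 9 rats, C3 and C16 departed most from the Control mean, each with 8 genes more than 1.5-fold away, against 1 to 4 in the other rats. C3 and C16 also had the smallest libraries, at 13893150 and 12479905 counts, and the part of depth in this was not tested.

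**Figure D4:**
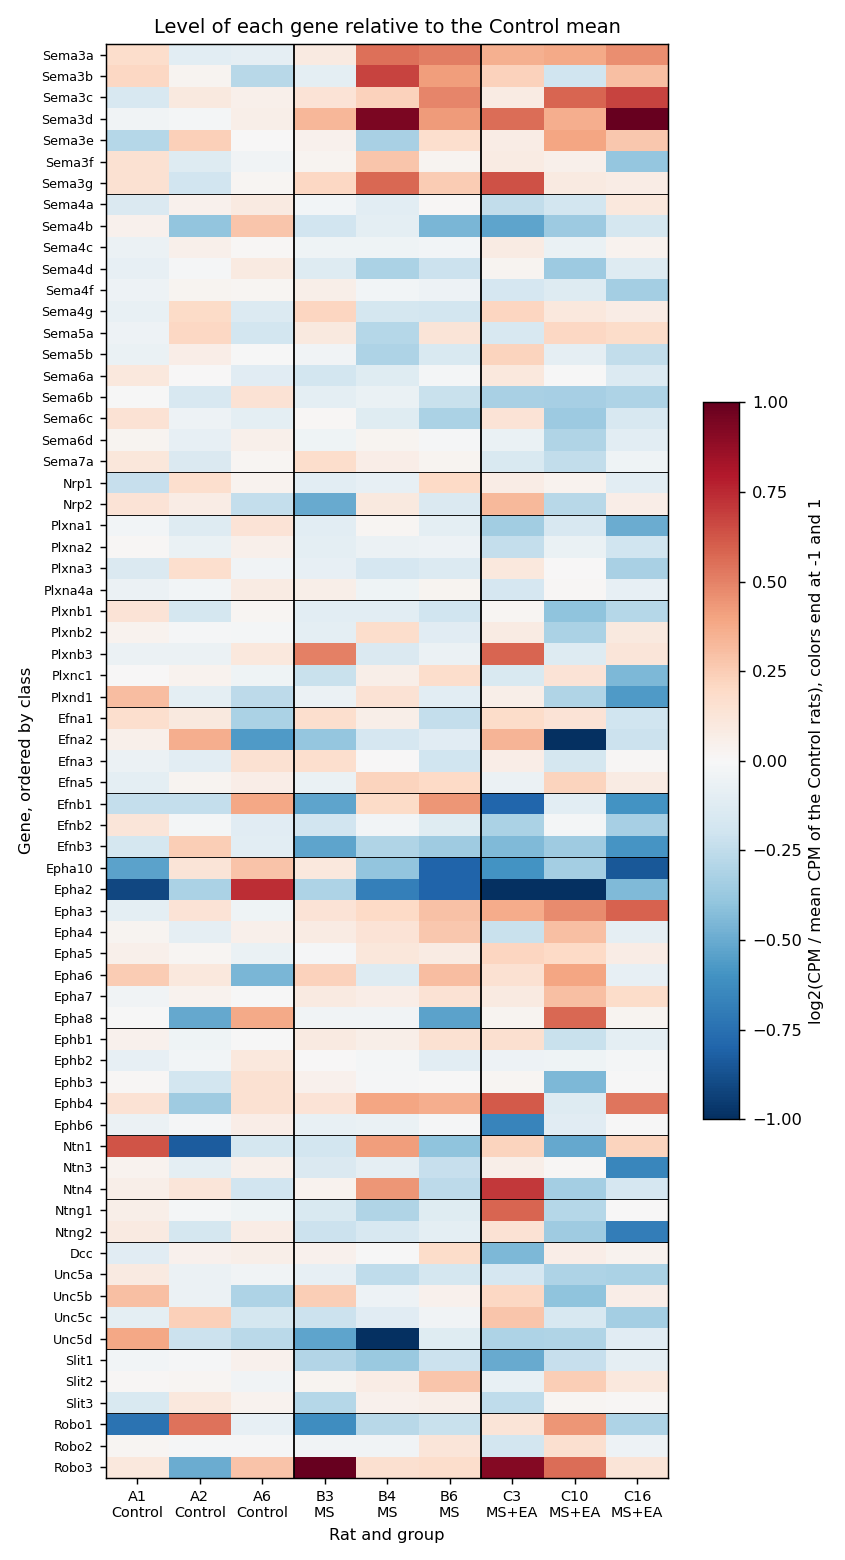
Level of all 67 genes (y axis, by class) in each of the 9 rats (x axis), as the log2 ratio of the CPM to the mean of the 3 Control rats, with colors ending at -1 and 1. Sema3d and Epha3 are red in all 6 separated rats and Efnb3, Slit1 and Unc5a blue, and C3 is red for Robo3, Ntn4, Ntng1 and Plxnb3.

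The promoter sequences (RefSeq, assembly GRCr8, 250 bases before to 50 bases after the annotated start, given on the strand of the gene, with CG dinucleotides in capitals) of 4 genes named above are shown for Epha3 and Sema6b, which passed the adjusted p, and for Sema3c and Sema3d, which rank highest in fold change among the class 3 ligands between MS+EA and Control. Their positions, all on the minus strand, are chr11:14920376-14920675 for Epha3, chr9:1047693-1047992 for Sema6b, chr4:18699578-18699877 for Sema3c and chr4:23460922-23461221 for Sema3d.
Epha3 promoter: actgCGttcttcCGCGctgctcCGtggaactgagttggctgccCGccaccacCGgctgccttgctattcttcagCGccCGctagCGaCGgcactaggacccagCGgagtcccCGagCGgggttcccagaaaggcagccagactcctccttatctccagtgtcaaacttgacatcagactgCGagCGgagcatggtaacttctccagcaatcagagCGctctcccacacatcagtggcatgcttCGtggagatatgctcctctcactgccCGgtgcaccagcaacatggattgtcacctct
Sema6b promoter: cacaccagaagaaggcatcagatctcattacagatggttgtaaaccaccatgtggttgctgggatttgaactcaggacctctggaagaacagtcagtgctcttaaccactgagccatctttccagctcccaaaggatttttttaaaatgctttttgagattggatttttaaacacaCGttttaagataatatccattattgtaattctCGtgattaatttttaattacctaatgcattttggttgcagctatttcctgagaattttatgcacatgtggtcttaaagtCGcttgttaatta
Sema3c promoter: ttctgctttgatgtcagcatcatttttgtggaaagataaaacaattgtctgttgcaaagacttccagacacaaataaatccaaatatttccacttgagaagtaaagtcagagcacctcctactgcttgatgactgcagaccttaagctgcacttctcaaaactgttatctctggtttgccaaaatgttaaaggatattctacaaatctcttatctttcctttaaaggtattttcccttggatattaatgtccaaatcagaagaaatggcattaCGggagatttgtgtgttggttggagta
Sema3d promoter: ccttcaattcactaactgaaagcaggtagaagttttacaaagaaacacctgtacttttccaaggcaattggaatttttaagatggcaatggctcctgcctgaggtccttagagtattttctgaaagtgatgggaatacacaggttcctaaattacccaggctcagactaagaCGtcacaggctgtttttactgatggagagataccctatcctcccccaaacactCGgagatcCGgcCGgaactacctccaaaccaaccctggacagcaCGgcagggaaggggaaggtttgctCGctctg

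The Epha3 window held 18 CG dinucleotides at 59.3% G and C, and the Sema3c window 1 at 36.3%. Sema6b had 3 at 36.3% and Sema3d 6 at 47.3%. A promoter was matched for 53 of the 67 genes, whose median was 63.7% G and C against 51.7% over all 33469 promoters of this length, and whose median ratio of observed to expected CG was 0.693 against 0.392. The GC box GGGCGG, searched on both strands, was in 28 of the 53 (52.8%) and in 33.1% of all promoters, and the TATA box TATAAA in 0 of 53 and in 14.2% of all. TGTTCT, a part of the glucocorticoid response element, was in 2 of the 53, Sema6b and Ephb6 (3.77%), and in 20.7% of all. The E-box CACGTG was in 5 (9.43%) and in 6.42% of all, and the cAMP response element TGACGTCA in 1 (1.89%) and in 1.83%. The 33469 promoters were not limited to the genes tested here or selected by gene type. What that adds to these differences was not tested. A match marks letters in the window, not a bound site.

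The signaling partners and cytoskeletal effectors of these receptors were followed in a list of 63 genes, all of them tested. None was past both thresholds in any comparison. With the adjusted p alone the count by edgeR was 0, 0 and 3, the 3 (4.76%, against 5.4% of all genes) being in MS+EA against Control and all lower: Srgap3, which couples Robos to Rac, Src, a tyrosine kinase, and Crmp1, a mediator of Sema3a signaling. An unadjusted p under 0.05 was found for 10 genes between MS and Control (15.9%, against 10.6% of all genes), 5 higher (7.94%, against 7.06%) and 5 lower (7.94%, against 3.55%). For MS+EA against MS it was found for 7 (11.1%, against 12.4% of all genes), all lower in MS+EA (6.42% of all genes were). For MS+EA against Control it was found for 18 (28.6%, against 22.5% of all genes). Of these, 3 were higher (4.76%, against 11.9%) and 15 lower (23.8%, against 10.6%). The median log2 fold changes of the list were -0.01, -0.05 and -0.05.

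Srgap3 was at 350, 314 and 334 CPM in Control, 332, 335 and 340 CPM in MS and 278, 283 and 276 CPM in MS+EA. The MS+EA rats lay below the other 6, which overlapped. It fell by 0.26 on the log2 scale against Control (SE 0.0603, edgeR adjusted p = 0.033), and its log2 fold change against MS was -0.27 (SE 0.0603, edgeR adjusted p = 0.184). Src showed the same pattern, with 220, 186 and 209 CPM in Control, 198, 206 and 197 CPM in MS and 174, 165 and 159 CPM in MS+EA. It fell by 0.30 against Control (SE 0.0719, edgeR adjusted p = 0.0337). Crmp1, at 254, 213 and 213 CPM in Control, was 182 to 203 CPM in MS and 176 to 190 CPM in MS+EA, so both separated groups lay below Control, and it fell by 0.30 between MS+EA and Control (SE 0.0801, edgeR adjusted p = 0.0488). Mical2, an enzyme that oxidizes actin, had a log2 fold change of -0.25 (SE 0.0624, edgeR adjusted p = 0.211) between MS+EA and MS.

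Between MS and Control the smallest p-values of this list belonged to Fes, Myl9 and Dpysl3. Fes, a tyrosine kinase linked to plexin A signaling, was weak, at 1.28 to 1.49 CPM in Control and 2.53 to 3.25 CPM in MS, with a log2 fold change of 1.10 (SE 0.269, edgeR adjusted p = 0.159). Myl9, a myosin light chain of contractile cells, had a log2 fold change of 1.12 (SE 0.343, edgeR adjusted p = 0.24) and was highest in B4, at 14.1 CPM, the rat with the most pericyte and fibroblast markers. Dpysl3, a relative of Crmp1, stood at -0.32 (SE 0.104, edgeR adjusted p = 0.273).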

How the data were processed

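Gene counts of 9 frontal cortex libraries (rRNA-depleted RNA, Illumina HiSeq X) were used as deposited by the authors, whose notes name HISAT2 2.0.4 and Rnor_6.0. The counting program and its strand setting are not given in the sources used here, so overlapping and antisense genes cannot be told apart. The 67 genes, the pathway and marker lists and the finer classes were chosen with earlier results of these data known.

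Genes were kept by filterByExpr (minimum count 10), scaled by TMM and tested in 1 fit of all 9 rats by edgeR 4.0.16 (R 4.3.3, quasi-likelihood test, trended dispersion), with Benjamini-Hochberg adjustment over 16837 genes. The study used EBSeq, which was not at hand; its thresholds (1.5-fold, adjusted p under 0.05) were kept. Fold changes are log2, with SE and 95% interval from the same fit. The fit was tested on simulated data with planted changes larger than nearly all of those reported here. That test does not bear on smaller changes. Named genes were up to 8 per comparison by unadjusted p under 0.05, the gene with the most counts of each class and, for the pathway list, up to 3 per comparison. Alternatives were DESeq2 1.42.0, limma 3.58.1 (prior count 2), other scalings and filters, the 6 rats compared alone, and each rat left out. With 3 rats a group, p-values weigh group differences against the spread between these 9 animals, estimated in that 1 fit. Same-group pairs of libraries all differed beyond sampling noise. Of the 67 symbols, 66 matched RefSeq and Plxna4a by its synonym. Members of 1 family can share similar sequence, and reads were not checked for it. Figures were drawn with matplotlib 3.10.9.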

Additional observations from a re-analysis of the deposited data

How the results depend on the processing

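The direction of each named guidance gene that had an adjusted p under 0.05 was kept in all 17 alternatives. The number of guidance genes past both thresholds between MS+EA and Control was 0, and became 1 with DESeq2, 2 with every gene of at least 1 count in any rat, 3 with no fold threshold, and 0 to 1 when each rat was left out, the 1 being Sema3d without B4 or C10 and Sema3c without C3. At any fold change the count was 3, and became 8 with DESeq2, where 8.77% of all genes passed. It became 11 with the filter of at least 1 count, and 0 (without A1, A6 or C16) to 5 (without C3). Between MS and Control the filter of at least 1 count gave 2, Efnb3 and Sema3a, in place of 0. Between MS and Control this filter calls more genes over the whole table as well (335 against 4). Between MS+EA and Control the whole-table share was 5.59% (1451 of 25954 genes) against 5.4%, while the guidance genes went from 3 to 11. The cause was not tested. Counts at any fold change, and bias-adjusted deviances, were added after the data were seen. The median log2 fold change of the 67 genes between MS+EA and MS was 0.0233 with total counts in place of TMM, and -0.0533 to 0.00607 when rats were left out. For MS+EA against Control it was -0.0920 to -0.00174 when rats were left out.

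No paired analysis was possible because the rat numbers in the labels name different animals, with the litter and day of each not given, and the groups compared share fewer than 2 numbers. The 9 genes with a within-group coefficient of variation over 25% averaged at most 37.5 CPM, and the part of depth in their spread was not tested.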
